A study of Homo sapiens with 8 samples.

Results

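The zinc finger genes of human chromosome 19 were examined for H3K4me3 and H3K27ac peaks at their promoters and at their ends. They were taken as the protein-coding genes of GENCODE release 44 on hg19 that lie on chromosome 19 and whose symbols read ZNF followed by a number. The rule gave 249 members among 20163 protein-coding genes, or 249 of the 1480 protein-coding genes of the chromosome, and it used no measured value. The libraries came from HL-60, an established human promyelocytic leukemia cell line that differentiates toward granulocytes when given all-trans retinoic acid (ATRA). Cells were grown for 4 days with 1 µM ATRA or with ethanol, the solvent, as the control, and in both groups the medium was changed and the agent given again during the course. H3K4me3, a histone mark of active start sites, and H3K27ac, a mark of active promoters and enhancers, were measured by ChIP-seq in 2 replicates of each condition, giving 8 libraries, 4 for each mark. All libraries came from this 1 line. The labels do not say whether replicates were separate cultures, so p-values measure only the spread between these libraries.

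Most proteins of this family carry a KRAB domain at their start, coded by early exons, and an array of C2H2 zinc fingers coded by 1 long last exon. The fingers read DNA, often within transposable elements, and the KRAB domain binds TRIM28, which brings the methyltransferase SETDB1 and the HP1 proteins, so that the target becomes marked with H3K9me3 and silent. The genes arose by repeated tandem duplication and lie in clusters, and their own finger-coding ends are known as places that carry H3K9me3 and that bind ZNF274, itself a member. H3K4me3 is usually found around start sites.

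The promoter of a member was the 2001 bp centred on its start site, and the end was the last 3 kb of the gene. Members had a median length of 20944 bp, and 115 of them lie on the minus strand. A median of 12 fingers was found in the 245 proteins whose coding sequence could be read in frame, with a range from 0 to 36 and the highest number in ZNF208. The ends of 244 members were used. The other 5 genes (ZNF575, ZNF524, ZNF784, ZNF580 and ZNF581) were shorter than 4 kb, so that promoter and end would overlap. Among the members, 3 are readthrough genes (ZNF559-ZNF177, ZNF625-ZNF20 and ZNF816-ZNF321P) that share a start or an end with a neighbor, so these windows are not independent. Altogether the gene bodies took up 5.57 Mb, or 9.42% of chromosome 19.

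The repeated structure of the ends is visible in the sequence. The run of 12 bases found in the largest number of members' last coding exons was TGGAGAGAAACC, which codes for part of the linker between adjacent fingers. It was present in 155 of 243 members (63.8%), with a median of 4 copies where present and as many as 20. On the other strand of these exons it was found in 0 of the 243. The same run was found in 30.4% of ZNF genes on other chromosomes, in 0.890% of the other genes of chromosome 19 and in 1.38% of all protein-coding genes. To show this, stretches of 252 bases from the last exon are given for ZNF433 (ENSG00000197647.13_14, hg19 chr19:12125916-12126167, minus strand) and ZNF91 (ENSG00000167232.14_12, chr19:23544733-23544984, minus strand). That of ZNF433 was chosen among 38 candidates that lay under a peak of H3K4me3 ATRA replicate 2. Their end peaks were found only in that H3K4me3 library. The choice went by the number of copies of the run, with any ties settled by gene name. ZNF91 had no peak in its promoter or end window in any library. Its stretch lies before the last 3 kb and was under no peak in H3K4me3 ATRA replicate 2. Both stretches lie in the coding part of the last exon, and capitals mark the 12-base run.
ZNF433: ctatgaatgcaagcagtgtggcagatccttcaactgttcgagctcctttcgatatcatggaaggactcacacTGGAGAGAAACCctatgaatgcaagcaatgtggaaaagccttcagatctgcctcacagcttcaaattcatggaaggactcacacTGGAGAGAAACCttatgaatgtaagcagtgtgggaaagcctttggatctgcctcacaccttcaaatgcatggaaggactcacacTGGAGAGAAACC
ZNF91: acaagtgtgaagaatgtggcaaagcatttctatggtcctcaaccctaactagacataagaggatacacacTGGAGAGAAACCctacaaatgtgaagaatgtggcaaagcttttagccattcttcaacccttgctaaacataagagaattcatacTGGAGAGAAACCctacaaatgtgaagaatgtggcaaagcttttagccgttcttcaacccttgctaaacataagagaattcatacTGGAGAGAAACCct
Both stretches held 3 copies of the run. Among members with an end peak in that library, 57.4% carried the run, and among those without one 70.8% did.

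In the promoters, the amount of CpG dinucleotides differed between members. The 150 bases before the start site are given for ZNF264 (ENSG00000083844.11_9, chr19:57702718-57702867, plus strand), which had H3K4me3 in every library, and for ZNF91 (chr19:23578274-23578423, minus strand), which had none, with each CG in capitals.
ZNF264: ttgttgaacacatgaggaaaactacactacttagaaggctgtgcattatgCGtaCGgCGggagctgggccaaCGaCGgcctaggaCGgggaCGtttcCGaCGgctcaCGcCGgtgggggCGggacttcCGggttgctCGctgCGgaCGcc
ZNF91: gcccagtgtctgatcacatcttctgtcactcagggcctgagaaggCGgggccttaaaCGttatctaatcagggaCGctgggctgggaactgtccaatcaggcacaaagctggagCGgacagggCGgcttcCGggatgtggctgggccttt
The ZNF264 stretch held 16 CG and the ZNF91 stretch held 6. The pair serves only as an example. Their ratios of observed to expected CpG over the whole promoter window lay closer together, at 0.647 for ZNF264 and 0.551 for ZNF91. Over the whole promoter window the median ratio of observed to expected CpG was 0.621 for members with H3K4me3 in all 4 libraries and 0.568 for members with none. The gap was wider among all protein-coding genes, with 0.708 and 0.383.

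Read counts were not part of the files, so depth is unknown, and each library is described by the peaks that were called in it. The H3K4me3 libraries held 13241 to 16487 peaks, and the H3K27ac libraries held 15457 to 39332. H3K4me3 was found at the promoters of 6 to 7 of 10 myeloid genes such as MPO, SPI1 and CSF3R, in every library, and at 0 to 1 of 5 lymphoid genes (CD79A). ATRA replicate 2 of H3K4me3 stood apart from the other 3 H3K4me3 libraries on chromosome 19. It had 1530 peaks there, or 9.28% of its peaks, against 6.31 to 7.05% in the others. That this library deviates was already known from earlier results of these data. It is kept separate below for that reason, and results that rest on it are given with and without it. With 2 libraries against 2, the exact two-sided permutation test over libraries cannot give a p below 0.333, so no difference between ATRA and control could reach significance.

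H3K4me3 was found at the promoters of 55.0 to 59.0% of members, with little difference between the conditions. It was present at 140 members (56.2%) in ATRA replicate 1, 147 (59.0%) in ATRA replicate 2, 139 (55.8%) in control replicate 1 and 137 (55.0%) in control replicate 2. Among all protein-coding genes the shares were 53.2 to 55.0%, and among other genes of chromosome 19 they were 52.4 to 56.2%. ZNF genes on other chromosomes were marked more often, at 71.4 to 73.7%. The mean share of members was 57.6% ± 1.99 (SD, n = 2) with ATRA and 55.4% ± 0.568 (n = 2) in control, a difference of 2.21 percentage points (exact permutation p = 0.333). The difference was 0.402 points between the first replicates and 4.02 points between the second, and without ATRA replicate 2 it was 0.803 points.

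**Figure D1:**
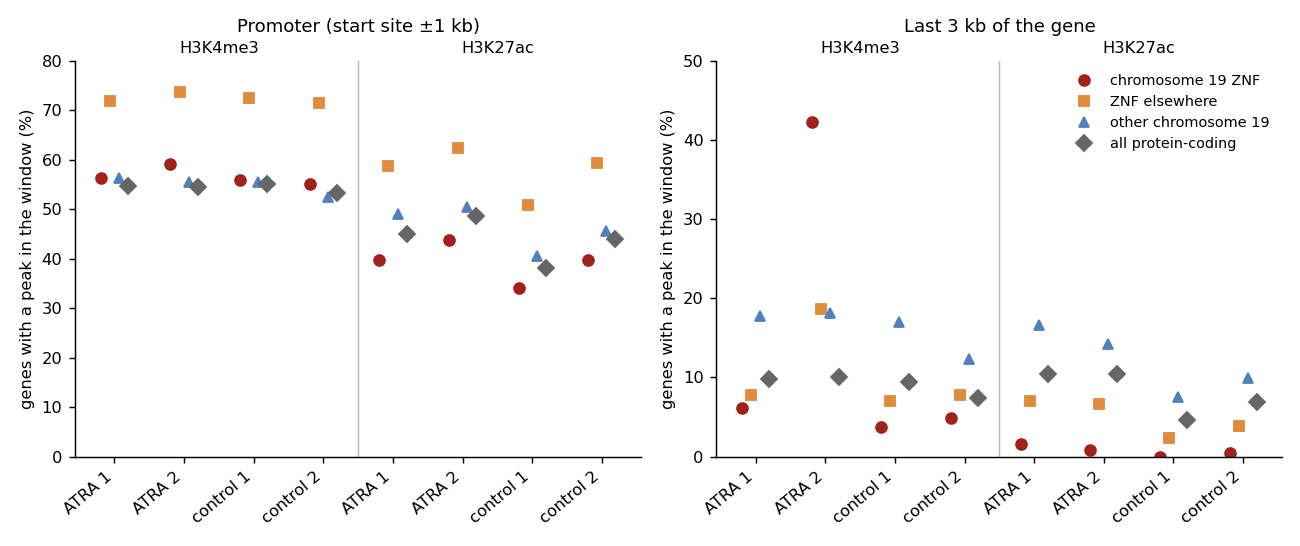
Share of genes with a peak at the promoter (left) and in the last 3 kb (right), one point per library and gene set, with H3K4me3 libraries left and H3K27ac libraries right in each panel. The red point of H3K4me3 ATRA replicate 2 at the gene ends, 42.2%, lies far above the 3.69 to 6.15% of the other H3K4me3 libraries.

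The promoters fell almost entirely into an always marked and a never marked class. H3K4me3 was present in all 4 libraries at 137 members (55.0%, against 52.8% of all protein-coding genes) and in none at 101 members (40.6%, against 44.1%). Only 11 members were left in between. Of the members marked throughout, 79 (31.7% of all members) also had H3K27ac in all 4 of its libraries and 20 (8.03%) had it in none. These classes made up 34.2 and 5.06% of all protein-coding genes. Among the never marked, 100 lacked H3K27ac as well (40.2% of members, against 40.7% of all protein-coding genes). The exception was ZNF792, with 30 bp of H3K27ac in control replicate 2. Such promoters made up 0.402% of members, against 3.45% of all protein-coding genes. The first never marked members along the chromosome were ZNF555, ZNF556, ZNF57, ZNF358, ZNF177 and ZNF560.

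Several members with known functions were in the unmarked class. ZNF91 and ZNF93, which repress SVA and LINE-1 retrotransposons, ZNF331, an imprinted gene, and ZNF536, a regulator of neuronal differentiation, had 0 bp of either mark at the promoter and at the end in all 8 libraries. ZNF274, which binds the ends of other members, had 2001 bp of promoter H3K4me3 in every library, the full window. Its promoter H3K27ac was 2001 and 1971 bp with ATRA and 1789 and 1619 bp in control. Both ATRA values were above both control values. ZNF8 also had the full 2001 bp of H3K4me3 in every library. ZNF160 had 2001 and 2001 bp of H3K4me3 with ATRA and 1895 and 2001 bp in control, so the groups touched. Its H3K27ac was 885 and 1414 bp with ATRA and 839 and 626 bp in control, with both ATRA values higher. ZNF382 had 2001 and 2001 bp of H3K4me3 with ATRA and 1951 and 2001 bp in control, and its H3K27ac was 0 and 294 bp with ATRA and 0 and 580 bp in control. ZNF675 had 2001 and 2001 bp of H3K4me3 with ATRA and 1852 and 1509 bp in control. Its H3K27ac values overlapped, at 968 and 875 bp with ATRA and 556 and 971 bp in control.

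Few members changed their H3K4me3 promoter call with ATRA. A peak in both ATRA libraries and in neither control library was found at 1 member, ZNF570, and the reverse at 0. Over all protein-coding genes, such calls were made for 0.317% in the first direction and 0.119% in the second. The ZNF570 promoter (TSS at chr19:37960258) had 40 bp of peak in ATRA replicate 1, 2001 bp in ATRA replicate 2 and 0 bp in both control libraries. The 40 bp are the edge of a peak, and the value thus came mainly from the library that stood apart. Without ATRA replicate 1, leaving ATRA replicate 2 alone against the controls, 8 members were called in this direction. In covered length, both ATRA libraries lay above both control libraries at 17 members (6.83%) and below at 3 members (1.20%). The same was true of 3.43% and 1.23% of all protein-coding genes. The 3 lower members were ZNF175, ZNF430 and ZNF814.

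H3K27ac was less frequent than H3K4me3 at members' promoters, and it differed more between libraries. It was present at 99 members (39.8%) in ATRA replicate 1, 109 (43.8%) in ATRA replicate 2, 85 (34.1%) in control replicate 1 and 99 (39.8%) in control replicate 2. The groups touched at 39.8%. Among all protein-coding genes the shares were higher in every library, at 45.1 and 48.5% with ATRA and 38.1 and 43.9% in control. ZNF genes on other chromosomes had 58.6 and 62.4% with ATRA and 50.8 and 59.4% in control. The members' difference of 4.82 percentage points had an exact permutation p of 0.667. It was 2.01 points without control replicate 1, 2.81 without ATRA replicate 2 and 7.63 without control replicate 2. Covered length averaged 501 bp ± 41.6 (SD, n = 2) with ATRA and 376 bp ± 49.7 (n = 2) in control, a difference of 126 bp (exact permutation p = 0.333), and it was higher with ATRA in both replicate pairs, by 131 and 120 bp. All protein-coding genes moved in the same direction, from 484 and 585 bp in control to 625 and 719 bp with ATRA. With peaks limited to a −log10 q of at least 5, the difference in members turned to -5.81 bp. That limit was passed by 18.9 and 3.77% of the members' H3K27ac promoter peaks with ATRA and by 13.4 and 18.2% in control, and the cause of the turn was not tested.

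H3K27ac was gained by 5 members in both ATRA libraries and lost by 0, near the background of 2.5% and 0.278% over all protein-coding genes. The 5 members already had H3K4me3 at the promoter in every library. ZNF586 had the largest values, with 949 and 971 bp with ATRA and 0 bp in both controls. ZNF888 had 261 and 913 bp with ATRA and 0 bp in both controls. ZNF264 had 646 and 213 bp, ZNF714 had 231 and 649 bp and ZNF549 had 279 and 282 bp, again with 0 bp in both controls. All of these were partial windows, covering less than 1000 bp of 2001. In covered length, 41 members (16.5%) were higher in both ATRA libraries and 5 (2.01%) were lower, against 14.2% and 2.42% of all protein-coding genes. Among them was ZNF446, with 2001 and 1725 bp with ATRA and 0 and 637 bp in control. These shares were close to the background and were not particular to the members. Leaving out any 1 library raised the number gained from 5 to between 8 and 12, as fewer libraries had to agree.

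**Figure D2:**
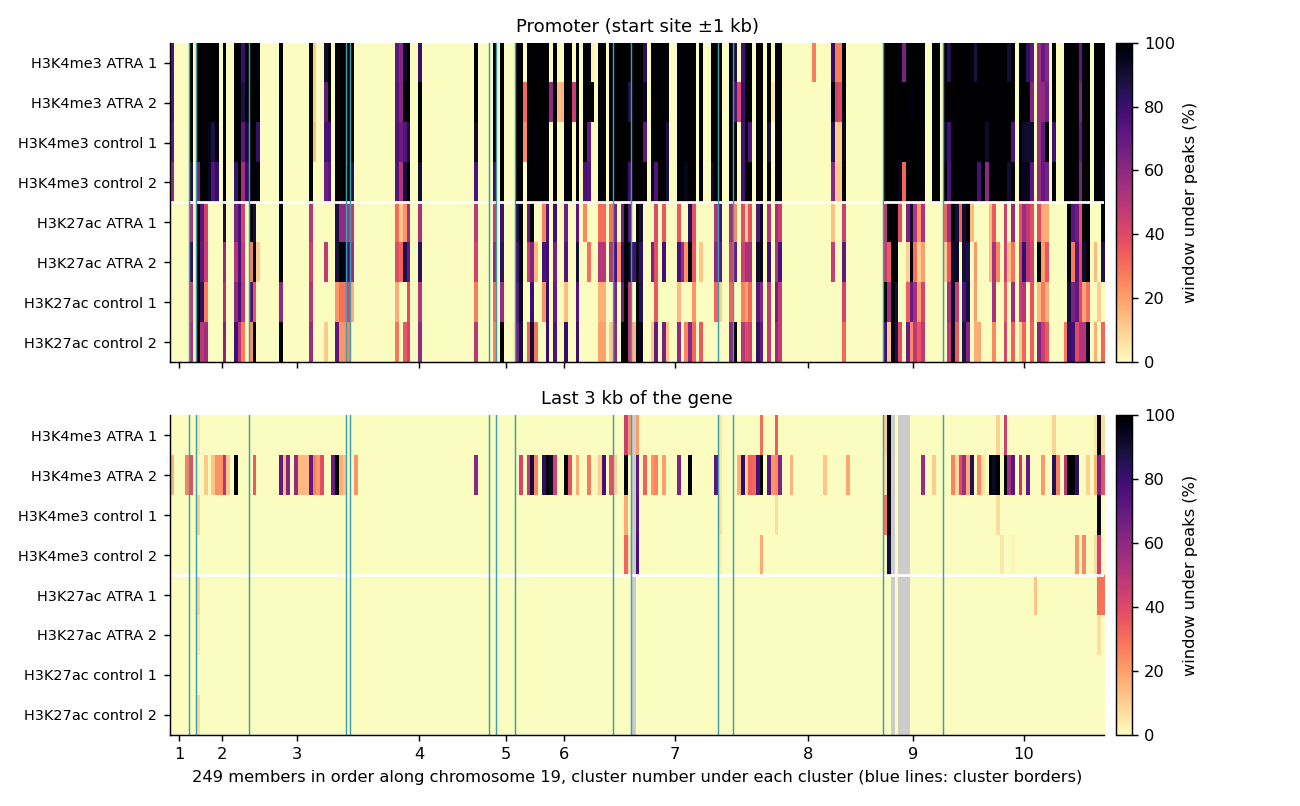
Each column is one of the 249 members in order along the chromosome and each row one library, with color giving the percent of the window under peaks at the promoter (top) and in the last 3 kb (bottom). Gray marks the 5 genes too short for an end window. The row of H3K4me3 ATRA replicate 2 in the lower panel is filled at 103 members, and the other rows are nearly empty.

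At the gene ends, H3K4me3 was rare in 3 libraries and frequent in the fourth. It reached the last 3 kb of 15 members (6.15%) in ATRA replicate 1, 103 (42.2%) in ATRA replicate 2, 9 (3.69%) in control replicate 1 and 12 (4.92%) in control replicate 2. Mean covered length was 54.3, 569, 41.7 and 39.9 bp in the same order. The mean share was 24.2% ± 25.5 (SD, n = 2) with ATRA and 4.30% ± 0.869 (n = 2) in control. The difference of 19.9 percentage points (exact permutation p = 0.333) was 2.46 points between the first replicates and 37.3 points between the second. With ATRA replicate 1 alone the difference from control was 1.84 points. The 2 ATRA replicates thus differed from each other by more than ATRA replicate 1 differed from the controls.

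Other genes of chromosome 19 did not show this pattern in the same library. Their ends were marked in 17.8, 18.1, 17.0 and 12.4% of cases in ATRA replicates 1 and 2 and control replicates 1 and 2. The members' share minus that of these genes averaged -10.4 ± 4.12 points (SD, n = 2) in the controls and 6.22 ± 25.3 points (n = 2) with ATRA. The difference of 16.6 points had an exact permutation p of 0.667, and without ATRA replicate 2 it was -1.32 points. ZNF genes on other chromosomes were also marked more often in ATRA replicate 2, at 18.6% of their ends against 6.98 to 7.75% in the other H3K4me3 libraries. On chromosome 19 itself, 4 of 16 genes with other zinc finger symbols, such as ZFP and ZSCAN, had an end peak in that library. This count (25%, against 18.1% of other genes of the chromosome) was made in that library only. It does not show whether these genes were marked more often there than in the other H3K4me3 libraries.

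A peak found only in ATRA replicate 2 among the H3K4me3 libraries was present at the ends of 87 of 244 members (35.7%), against 1.27% of all protein-coding genes. The figure was 11.2% for ZNF genes elsewhere and 2.68% for other genes of chromosome 19. Ends marked only in ATRA replicate 1 or only in control replicate 1 numbered 0 among members, where all genes gave 0.677% and 0.688%. ZNF837 was the 1 member marked only in control replicate 2 (728 bp), where all genes gave 0.103%. Of the 103 members with an end peak in ATRA replicate 2, 13 had one in ATRA replicate 1, 8 in control replicate 1 and 10 in control replicate 2. No count of reads was at hand to show whether weaker signal was present at the rest in these libraries.

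The full 3000 bp was covered in ATRA replicate 2 at 12 members. ZNF121, ZNF564, ZNF850, ZNF420 and ZNF226 had 3000 bp there and 0 bp in the other 3 H3K4me3 libraries. ZNF274 and ZNF549 did likewise. ZNF432 had 3000 bp in ATRA replicate 2, 917 bp in ATRA replicate 1, 0 bp in control replicate 1 and 546 bp in control replicate 2. All of these genes had H3K4me3 at the promoter in every library. Among members with partial coverage, ZNF224 had 1900 bp, ZNF675 had 1805 bp and ZNF382 had 755 bp in ATRA replicate 2, each with 0 bp in the other 3. ZNF8 had 2491 bp there and 646 bp in control replicate 2. ZNF160 had 0 bp in every library. ZNF433, whose sequence is shown above, had 1859 bp of end peak in ATRA replicate 2 and no promoter H3K4me3.

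H3K4me3 at the end was shared by all 4 libraries in 5 members. They were ZNF574, ZNF576, ZNF296, ZNF579 and ZNF324. ZNF579 had 3000 and 3000 bp with ATRA and 2866 and 2681 bp in control. ZNF324 had 2903 and 1934 bp with ATRA and 2841 and 1289 bp in control, with overlapping groups. These genes are short for the family, and the ends of ZNF574, ZNF579 and ZNF324 lie within 1 kb of the start site of another gene, as did 35 of the 244 ends. ZNF576 was the 1 member with less end H3K4me3 in both ATRA libraries, with 616 and 2117 bp against 2189 and 2306 bp (0.723% of all genes lay in that direction).

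Gains at the end in both ATRA libraries were seen at 3 members and losses at 0, where all protein-coding genes gave 0.534% and 0.0918%. ZNF134 had 1323 and 3000 bp with ATRA and 0 bp in both controls. ZNF256 had 287 and 2541 bp and ZNF446 had 200 and 1119 bp, also with 0 bp in both controls. In each the second replicate carried the longer coverage. All 3 lie in the last cluster of the chromosome, between chr19:58125610 and chr19:58992597. With only peaks that did not also reach the gene's own promoter the number gained was 0, and without ATRA replicate 1 it was 90. In covered length, 8 members (3.28%) were higher in both ATRA libraries, against 2.82% of all genes. ZNF766 was among them, with 1024 and 744 bp against 197 and 0 bp.

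H3K27ac was rarely found at the ends, with or without H3K4me3. It was present at the ends of 4 and 2 members with ATRA and of 0 and 1 in control. Of the 103 members with an H3K4me3 end peak in ATRA replicate 2, 2 and 1 had H3K27ac there with ATRA and 0 in both controls. The exception gained in both ATRA libraries was ZNF324, with 883 and 196 bp against 0 bp, and none was lost (2.25% and 0.218% of all genes). ZNF324 was also the 1 member with more H3K27ac end coverage in both ATRA libraries, with 0 below (4.44% and 0.539% of all genes). Over members the share was 1.23% ± 0.580 (SD, n = 2) with ATRA and 0.205% ± 0.290 (n = 2) in control (exact permutation p = 0.333). Other genes of chromosome 19 had H3K27ac at 14.3 to 16.7% of ends with ATRA and at 7.57 to 9.96% in control, so the members' share minus theirs was -14.2 points with ATRA and -8.56 points in control (exact permutation p = 0.333).

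**Figure D3:**
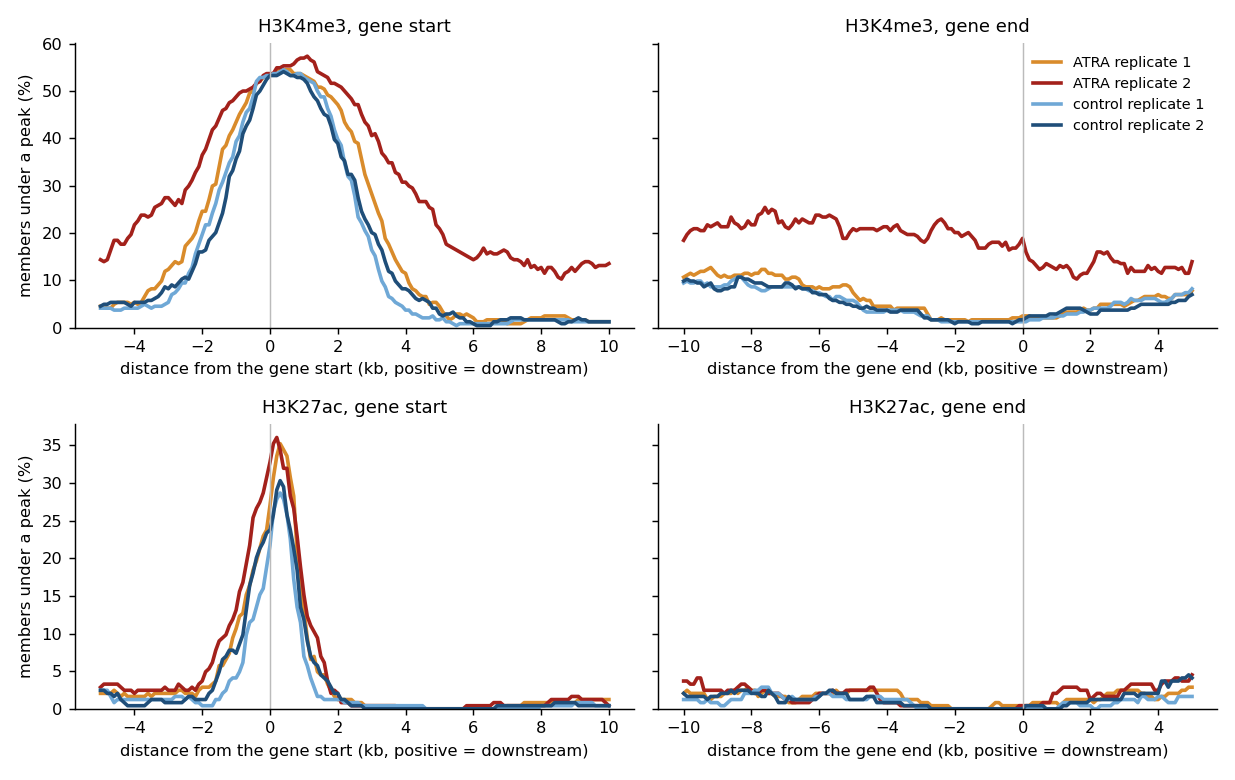
Percent of the 244 members with an end window that were under a peak at each distance from the gene start (left) and gene end (right), for H3K4me3 (top) and H3K27ac (bottom), with one line per library. The dark red line of ATRA replicate 2 lies above the other H3K4me3 lines on both flanks of the start site, meets them close to it, and lies above them along the gene end, and at 4 kb inside the gene it is at 30.7%, against 3.69 to 11.5% in the others.

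The added H3K4me3 of ATRA replicate 2 was not limited to the ends. At 4 kb downstream of the start site, 30.7% of members were under a peak in that library, against 11.5% in ATRA replicate 1, 3.69% in control replicate 1 and 8.20% in control replicate 2. At 4 kb upstream it was 21.7%, against 4.10 to 5.33%. Close to the start site the libraries were alike, with maxima of 54.1 to 57.4%. Promoter peaks of members had a median length of 6411 bp in ATRA replicate 2, against 4921 bp in ATRA replicate 1, 4151.5 bp in control replicate 1 and 3934 bp in control replicate 2. The longest reached 40232 bp.

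Within the genes, the coding part of the last exon, which holds the fingers, had the largest change. In ATRA replicate 2, 23.4% of its bases were under H3K4me3 peaks, against 1.51% in ATRA replicate 1, 1.05% in control replicate 1 and 1.36% in control replicate 2. For the rest of the last exon the values were 15.7%, 1.60%, 1.01% and 0.892%. For introns and other exons, where coverage in all libraries includes the flanks of promoter peaks, they were 16.8%, 6.52%, 4.80% and 5.43%. The part of the promoter window inside the gene showed little spread, at 53.9 to 55.9%. These values are over 238 members with a separate last coding exon.

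**Figure D4:**
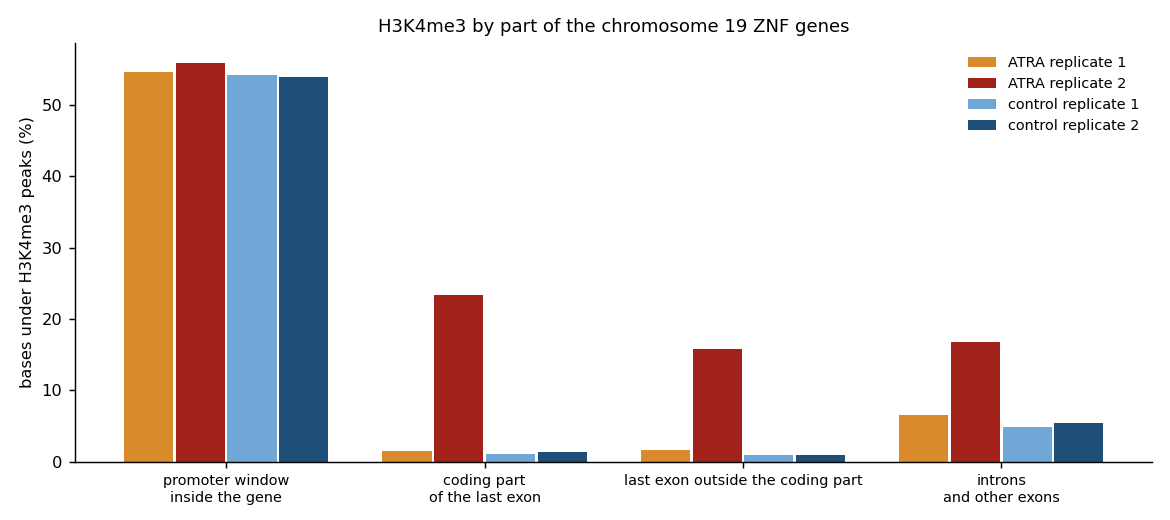
Percent of bases under H3K4me3 peaks in 4 parts of the chromosome 19 ZNF genes, with one bar per library. The bars of ATRA replicate 2 reach 23.4% in the coding part of the last exon and are level with the other libraries, at 53.9 to 55.9%, in the promoter.

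On chromosome 19, the extra coverage also reached the surroundings of the members inside their clusters. Away from promoter windows, 16.9% of the members' bodies were under peaks in ATRA replicate 2, against 4.19 to 5.65% in the other H3K4me3 libraries. Other genes that lie inside the clusters had 8.14% against 2.52 to 3.54%, and the gaps between genes inside the clusters had 5.17% against 1.57 to 2.06%. Outside the clusters on chromosome 19, genes that are no members had 7.56% in ATRA replicate 2 and 5.79 to 8.08% in the other libraries, and the gaps between genes had 3.36% against 2.23 to 3.60%. For H3K27ac, 0.351 and 0.413% of the members' bodies were under peaks with ATRA and 0.205 and 0.288% in control.

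Counted by peaks, 2048 H3K4me3 peaks of ATRA replicate 2 overlapped no peak of the other 3 libraries, and 567 of them lay on chromosome 19. Members' bodies held 321 of these, or 56.6% of the private peaks on the chromosome and 15.7% of all. A further 109 lay in ZNF genes on other chromosomes. In ATRA replicate 1, control replicate 1 and control replicate 2, 5, 2 and 2 private peaks lay in members. These libraries had 1507, 1737 and 188 private peaks in all, so the shares were 0.332, 0.115 and 1.06%. The 100 separate end peaks of ATRA replicate 2, those that lay outside every member promoter, had a median length of 996.5 bp and a median −log10 q of 7.39, and 61% of them had a −log10 q of at least 5. Of these peaks, 14 covered an annotated start site. In the other libraries there were 6, 1 and 5 such peaks. Over 110 pairs of a peak and a member, the peak centre lay a median of 1500.25 bp before the gene end, and in 21 pairs it lay past the end. These peaks were taken because they touch the last 3 kb, and a median at mid-window follows from that choice. The values therefore do not show a preferred position.

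End peaks in ATRA replicate 2 were more frequent where the promoter was marked. An end peak was present at 80 of 132 members (60.6%) with promoter H3K4me3 in all 4 libraries, at 5 of 11 with the mark in 1 to 3, and at 18 of 101 (17.8%) with none. The promoter class includes that library itself and one peak can reach both windows, so the counts are a description. ZNF genes elsewhere had 22.9% and 7.46% in the first and last class. ZNF433, ZNF177 (687 bp at the end) and ZNF560 (344 bp) are examples of the last class.

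The median number of fingers was 12 with an end peak and 13 without, and the median G+C content of the last 3 kb was 40.8% and 40.2%. Median gene length was 19605 bp and 22358 bp. The share of marked ends was lower in longer genes, at 56.7% of 30 members under 10000 bp, 43.5% of 85 under 20000 bp, 40.5% of 111 under 40000 bp and 22.2% of 18 above that. By fingers it was 27.3% of 11 members with up to 5 fingers, 49.3% with 6 to 10, 35.9% with 11 to 15 and 47.3% with 16 or more, without a steady order. By strand, 43.8% of plus-strand and 40.4% of minus-strand members had an end peak. Promoter peaks of members had a median length of 6411 bp in ATRA replicate 2, so in the shortest genes one peak can reach both windows. The part of this reach, and of cluster, in the lower share of longer genes was not tested. How reads that match several of these similar genes were handled was not given in the sources used here, and its part in the end peaks was not tested.

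The members fell into 10 clusters of at least 5 genes, with at most 500 kb between neighboring start sites, which held 235 of the 249. The largest are cluster 4 with 37 members (ZNF101 to ZNF254, start sites from chr19:19779648 to chr19:24269989), cluster 8 with 40 (ZNF175 to ZNF331, chr19:52074536 to chr19:54041399) and cluster 10 with 43 (ZNF264 to ZNF446, chr19:57702868 to chr19:58987719). Promoter H3K4me3 differed more between clusters than between libraries. In cluster 10 it was present at 37 of 43 members in each of the 4 libraries. Cluster 4, beside the centromere, had it at 7 of 37 in each library, the same number in ATRA and control. These were ZNF101, ZNF430, ZNF714, ZNF431, ZNF708, ZNF429 and ZNF675. Cluster 8 was marked at 13 to 15 of 40.

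End peaks of ATRA replicate 2 were spread over most clusters and were nearly missing from cluster 4. They were found at 29 of 43 members (67.4%) in cluster 10, at 16 of 26 in cluster 3 (ZNF653 to ZNF791) and at 16 of 26 in cluster 6 (ZNF565 to ZNF573). Cluster 4 had 2 of 37 (5.41%), ZNF14 and ZNF675, and the 5 members of cluster 5 (ZNF302 to ZNF792) had 0. Cluster 8 had 14 of 40 and cluster 7 (ZNF575 to ZNF180) had 9 of 22. In the other H3K4me3 libraries no cluster had more than 6 marked ends. In cluster 6 the same library also had more marked promoters, 23 of 26 against 17 to 18. Cluster 3 had promoter H3K4me3 at 10 to 11 of 26 members, and its number of marked ends in ATRA replicate 2 was higher than its number of marked promoters.

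**Figure D5:**
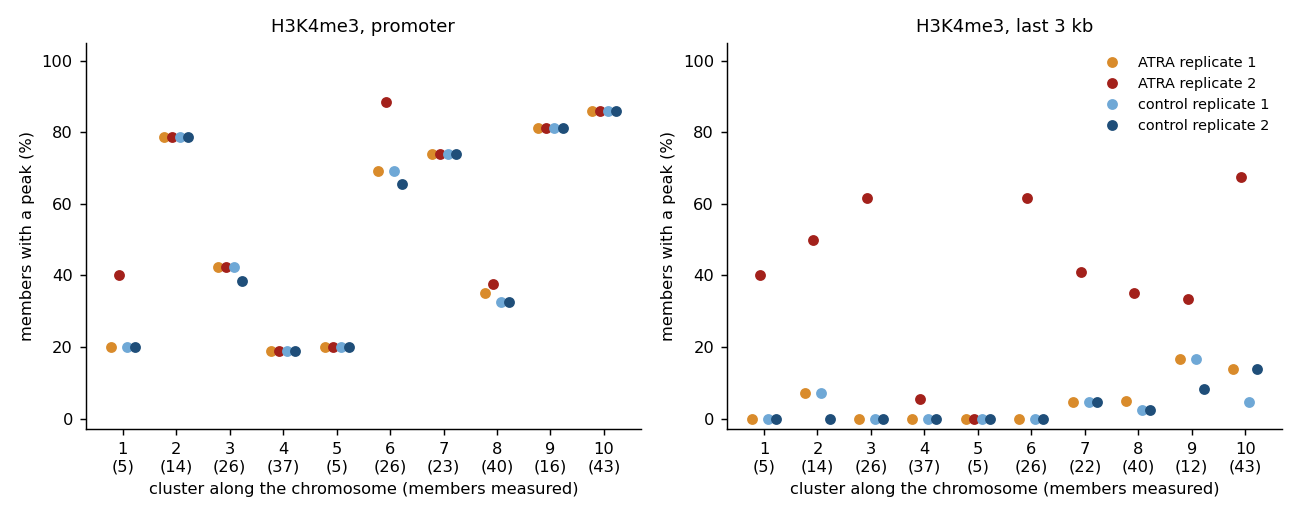
Percent of members with an H3K4me3 peak at the promoter (left) and in the last 3 kb (right) in each of the 10 clusters, ordered along the chromosome, with one point per library and the number of members measured in parentheses. Promoter points of the 4 libraries differ most in clusters 1 and 6, and end points of ATRA replicate 2 range from 0% in cluster 5 and 5.41% in cluster 4 to 67.4% in cluster 10.

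The partners through which these proteins act kept their promoter H3K4me3. All 20 of 20 listed genes, among them TRIM28, SETDB1, the HP1 genes CBX1, CBX3 and CBX5, and MPHOSPH8, TASOR and PPHLN1 of the HUSH silencing complex, were marked in each of the 4 libraries. Of all protein-coding genes, 52.8% were marked in all 4, and a changed call was rare, at 0.317% gained and 0.119% lost. H3K27ac was present at 19 and 19 of the 20 with ATRA and at 17 and 19 in control, and SUV39H2, an H3K9 methyltransferase, had none. Over all protein-coding genes the H3K27ac shares were 45.1 and 48.5% with ATRA and 38.1 and 43.9% in control. H3K27ac at MPHOSPH8 was 1599 and 1668 bp with ATRA and 0 and 205 bp in control. At UHRF1, which maintains DNA methylation together with DNMT1, it was 94 and 427 bp with ATRA and 1988 and 1533 bp in control. In all, 4 of the 20 (SETDB1, MPHOSPH8, MORC3 and EHMT1) had more H3K27ac in both ATRA libraries and 2 (TASOR and UHRF1) had less, where all protein-coding genes gave 14.2% and 2.42%. CBX1 had 303 and 895 bp with ATRA and 0 and 1376 bp in control, so its groups overlapped. At the ends of these 20 genes, ATRA replicate 2 did not stand apart, as H3K4me3 was found at 2, TRIM28 and DAXX, in every library, with 3000 bp each.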

How the data were processed

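H3K4me3 and H3K27ac ChIP-seq libraries of HL-60 cells with ATRA or ethanol were used, 2 replicates for each of 4 groups, with groups and replicate numbers from the sample labels. The authors removed adapters with cutadapt, used Bowtie for alignment to hg19, and ran MACS2 in its broad mode once per library. Input libraries were made from fragmented DNA. Tool versions, and whether the inputs entered peak calling, were not given in the sources used here. The deposited peak lists hold start and end positions and, per peak, a −log10 q, used only for the limit of 5. The fold and −log10 p columns hold impossible values and were not used.

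Windows came from the Ensembl canonical transcript in GENCODE release 44 on hg19 (for 3 members, the gene record). The promoter was the start site with 1000 bp on either side and the end was the last 3000 bp of genes of at least 4000 bp. A window was marked with 1 bp of overlap. Calls were made over all 20163 genes (17432 for ends), and library labels were permuted exactly. Replicate numbers are shared by a tag in the peak names of ATRA and control, and deviations of paired libraries correlated across genes (r = 0.219 and 0.353 at promoters, 0.202 and 0.334 at ends). Fingers, motifs and GC were read from the GRCh37 genome. A finger was C, 2 to 4 residues, C, 12 residues, H, 3 to 5 residues, H in the translated sequence. Window overlaps were tested on simulated peaks. Python 3.11.15, numpy 2.4.6, pandas 2.3.3 and matplotlib 3.10.9 were used.

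The members, windows and lists were chosen with earlier results of these data known. Named genes were 10 fixed members, those gained or lost (up to 6 per mark and window), the 6 longest end peaks per H3K4me3 ATRA library, ends marked in all 4 libraries, the first 6 members without promoter H3K4me3, and 20 pathway genes. ZNF14, ZNF101, ZNF175, ZNF208, ZNF429, ZNF430, ZNF431, ZNF433, ZNF708, ZNF792, ZNF814 and ZNF837 were named after their values were seen. The myeloid and lymphoid markers were also chosen after the data were seen.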

Additional observations from a re-analysis of the deposited data

How the results depend on the processing

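Of 206 alternatives over 18 values and counts, 167 kept the direction of a value or stayed close to a count, and 39 did not. The size of a value was not part of this label. Without ATRA replicate 2 the H3K4me3 end difference kept its direction at 1.84 points, against 19.9. In covered length it was 13.5 bp, against 271 bp. The exact test could not reach significance in this design, so no alternative bears on it. With a −log10 q of at least 5, the ATRA minus control difference at promoters was 0 percentage points for H3K4me3, -1 for H3K27ac and -5.81 bp for H3K27ac length, and at ends it was 0 points and 0 bp for H3K27ac. At that limit H3K4me3 promoters gave 2 gained and 1 lost, H3K27ac promoters 2 gained and 1 lost, and H3K27ac ends 0 gained. Gained H3K4me3 promoters (1 as reported) were 0 with 500 bp or 2 kb flanks and 2 with gene record ends or 500 bp of overlap. Lost H3K27ac promoters (0 as reported) were 1 with either flank or 500 bp of overlap. Gained H3K4me3 ends (3 as reported) were 1 in the last 1 kb, 5 in the last 5 kb and 0 with peaks off the own promoter, and gained H3K27ac ends (1 as reported) were 0 away from other start sites or with 500 bp of overlap. Leaving out 1 library gave 1 to 8 gained H3K4me3 promoters, 8 to 12 gained and 0 to 4 lost H3K27ac promoters, 3 to 90 gained and 0 to 1 lost H3K4me3 ends, 1 to 3 gained H3K27ac ends, and -1.32 to 34.5 points for the H3K4me3 end share relative to other chromosome 19 genes. The values of 8, 90 and 34.5 came without ATRA replicate 1, and that of -1.32 without ATRA replicate 2. The cause was not tested. With 2 complete pairs, the replicate block cannot change a difference of means. The H3K4me3 end difference of 19.9 points (exact permutation p = 0.5, the smallest 2 pairs allow) was thus the same by construction. So were the other 9 shares, lengths and excesses, and these rows are among the 167. The gained and lost counts were not run with the block. Leaving out the 3 readthrough members, chosen after seeing the data, kept all 18. Without read counts, depth sets an unknown limit on weak peaks.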
